A study of Arabidopsis thaliana with 18 samples.

Results

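The comparison described here stays within the surfactant control of a study of 18 Affymetrix ATH1 arrays on the Arabidopsis thaliana accession Tsu-1. Of the 18 arrays, 6 carry it: silwet arrays 91, 92 and 93 were set against silwet arrays 94, 95 and 96. The arrays were chosen by the number in their titles and paired by replicate number, so no measured value took part in the choice. Both groups had received 0.02% silwet and no salicylic acid (SA). They share accession, treatment and array type. Besides the array and replicate numbers, each title holds a further number that differs from array to array, and its meaning is not given. The labels hold nothing else that separates the groups. Another 3 silwet arrays, numbered 97 to 99, and 9 arrays numbered 100 to 108, which had received 0.3 mM SA together with 0.02% silwet, complete the series as 6 sets of 3. The labels state no tissue, plant age or harvest time. Array triplet, harvest and any order of processing therefore cannot be told apart. The labels do not state whether the arrays of a triplet stand for separate plants or cultures. The tests are thus made against a spread between arrays that may be only technical.

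Silwet is an organosilicone surfactant that lowers the surface tension of a spray, so that the liquid spreads over the waxy leaf surface and can enter through stomata. Handling, wetting and wounding of leaves are known to raise, quickly and for a short time, the RNA of calcium-binding proteins, WRKY and zinc finger transcription factors, ubiquitin ligases and jasmonate genes. A separate, mitochondrial response is known to raise detoxifying and chaperone genes when respiration is disturbed.

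Signal is given as log2 of the deposited array signal, where a difference of 1 is a change of 2-fold, and every difference is arrays 91–93 minus arrays 94–96 with its SE. A probe set was called when limma's adjusted p was below 0.05 over the 15922 probe sets tested. In such whole samples, fewer cells of a type and less RNA per cell cannot be told apart.

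The arrays resembled their own triplet more than the other. Across probe sets, the correlation between arrays was 0.956 to 0.961 within arrays 91–93 and 0.949 to 0.969 within arrays 94–96. Between the triplets it was 0.928 to 0.943 for arrays of the same replicate number and 0.898 to 0.944 for the others. Among arrays outside the comparison, array 97 of the silwet set and array 100 of the SA set stood apart, with mean correlations to the other arrays of 0.880 and 0.852, and counts without them are given below. Nuclear photosynthesis genes were bright on all 6 arrays, with list means of 10.60, 10.76 and 10.60 on arrays 91, 92 and 93, against 10.43, 10.67 and 10.78 on arrays 94, 95 and 96. The root marker PYK10, a beta-glucosidase of endoplasmic reticulum bodies, had 8.95, 7.91 and 8.21 on arrays 91, 92 and 93, against 6.85, 7.31 and 7.90 on arrays 94, 95 and 96. It was the only root marker that the annotation named, and its difference of 1.0 ± 0.37 did not pass (adjusted p = 0.13). The GAPDH control probe sets, whose 3′ to 5′ ratio follows RNA quality, gave log2 ratios of 0.14, 0.07 and -0.01 on arrays 91, 92 and 93, against -0.17, -0.16 and -0.10 on arrays 94, 95 and 96. The groups did not overlap in either of these measures, and their part in the differences below was not tested. The actin ratio did overlap, with 1.05, 0.59 and 0.51 on arrays 91, 92 and 93, against 0.51, 0.67 and 0.64 on arrays 94, 95 and 96.

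Signal differed between the silwet triplets for a minority of probe sets, and more of them were higher than lower on arrays 91–93. Of 15922 probe sets, 753 (4.73%) were called higher and 438 (2.75%) lower. Among the 8743 that carry 1 gene, 378 (4.32%) were called higher and 218 (2.49%) lower. The rises were also the larger changes. A difference of at least 1 was found for 551 of the 753 probe sets called higher and for 132 of the 438 called lower, and one of at least 2 for 151 and for 12. The median difference was 1.34 among those called higher and -0.84 among those called lower, beside -0.10 over all probe sets tested.

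The signs in the single pairs are given as a description, because the calls were made from these same pairs. Passing the test with 3 pairs makes 1 sign in all of them likely. All 3 replicate pairs had the same sign in 752 of the 753 probe sets called higher and in all 438 called lower, while 50.2% of all probe sets had it. The median of those called higher was 1.3, 1.27 and 1.46 in pairs 1, 2 and 3, and the median of those called lower was -0.83, -0.72 and -0.94. The counts themselves depended on the arrays used. Without replicate 3 of every set, 160 probe sets were called higher and 19 lower, without replicate 2 the counts were 278 and 55, with no replicate block 443 and 129, and with arrays 97 and 100 left out they were 1192 and 1330.

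On the third silwet triplet most of the called probe sets lay nearer to arrays 94–96. The median level of the 753 probe sets called higher was 7.53 on arrays 91–93, 6.15 on arrays 94–96 and 6.22 on arrays 97–99. The median level of the 438 called lower was 6.33, 7.25 and 7.06 on the same triplets. The mean on arrays 97–99 was nearer to that of arrays 94–96 for 610 (81%) of those called higher and for 317 (72.4%) of those called lower, beside 52.3% of all probe sets. Probe sets chosen for a gap between the earlier triplets tend to show such a share, so it is given as a description.

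**Figure D1:**
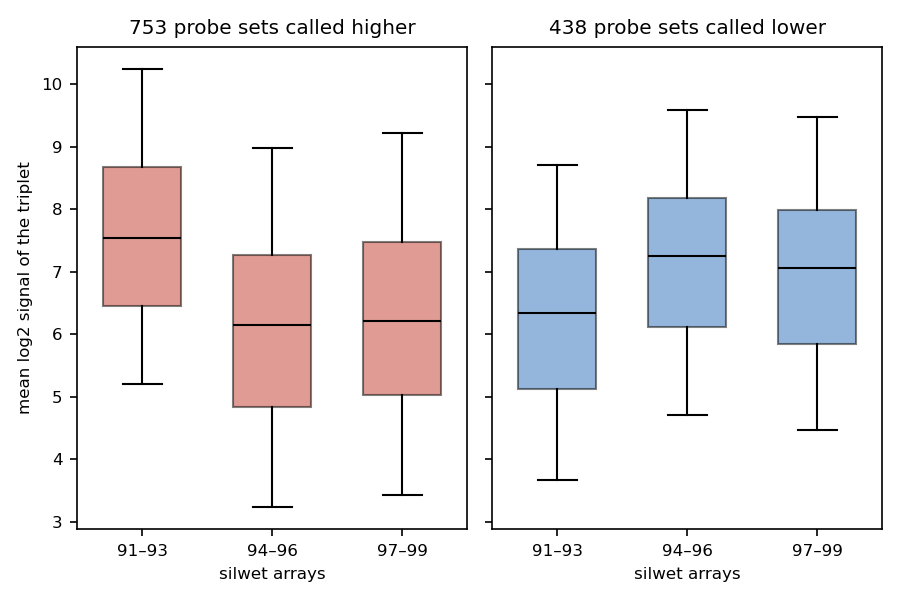
Mean log2 signal of each silwet triplet (91–93, 94–96 and 97–99 from left to right) for the probe sets called higher (left panel) and called lower (right panel). Boxes span the quartiles with the median as a line, and whiskers run to the 5th and 95th percentiles; the median of the 753 probe sets called higher is 7.53 on arrays 91–93 and 6.15 on arrays 94–96, and that of the 438 called lower is 6.33 and 7.25.

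The 24 genes described first are the 12 largest rises and the 12 largest falls among called probe sets with 1 gene, the same sign in all 3 pairs and a mean of at least 5 in the brighter triplet. Of such probe sets, 360 were higher and 197 lower.

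By the deposited values, the 2 largest rises were in genes that were dim on arrays 94–96. AT2G22880, which encodes a VQ-motif protein, a kind of WRKY partner, had 6.73, 6.62 and 8.34 on arrays 91, 92 and 93, against 0.39, 0.16 and 4.23 on arrays 94, 95 and 96, a difference of 5.64 ± 0.65 (adjusted p = 0.000106). AT1G74870, a RING/U-box protein, had 8.34, 8.84 and 9.67 on arrays 91, 92 and 93, against 3.71, 3.07 and 3.95 on arrays 94, 95 and 96, a difference of 5.37 ± 0.67 (adjusted p = 0.000202). Neither gene's groups overlapped, and array 93 was the brightest in both. Dim signals of this kind scatter widely on the log2 scale, as the gap between arrays 95 and 96 for AT2G22880 shows. With every signal raised to a floor of 16, the difference of AT2G22880 was 3.16, below those of AT2G23270 (3.40) and AT1G10585 (3.34), so its rank rests on values below that floor. AT1G74870 was at 4.95 with the floor.

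Several rises were in enzyme genes. CCR2, a cinnamoyl-CoA reductase of the lignin pathway, had 6.24, 6.57 and 7.01 on arrays 91, 92 and 93, against 3.01, 0.60 and 3.61 on arrays 94, 95 and 96, a difference of 4.2 ± 0.71 (adjusted p = 0.00192). AT1G59950, an aldo-keto reductase, rose by 4.41 ± 0.72 (adjusted p = 0.00149), and UGT73C1, a glycosyltransferase that conjugates small molecules, by 4.01 ± 0.82 (adjusted p = 0.00693). All 3 were dim on arrays 94–96, and with the floor of 16 their differences were 2.61 for CCR2, 2.67 for AT1G59950 and 1.71 for UGT73C1. CYP84A4, a cytochrome P450 that diverts phenolics to pyrone compounds, had 6.25, 6.21 and 6.6 on arrays 91, 92 and 93, against 3.08, 2.71 and 3.92 on arrays 94, 95 and 96, a rise of 3.12 ± 0.29 (adjusted p = 2.32e-05).

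Genes of small signalling peptides were among the rises. AT4G28460, AT2G23270 and AT4G37290 encode the PAMP-induced peptides PIP1, PIP3 and PIP2, which are secreted and amplify immune signalling. AT4G28460 had 7.99, 7.77 and 8.96 on arrays 91, 92 and 93, against 4.57, 5.14 and 5.52 on arrays 94, 95 and 96, a difference of 3.16 ± 0.25 (adjusted p = 8.27e-06). AT2G23270 rose by 3.75 ± 0.45 (adjusted p = 0.000157). AT4G37290, a dim gene, rose by 1.64 ± 0.40 (adjusted p = 0.0231), but with the floor of 16 its difference was 1.02 and did not pass (adjusted p = 0.0539). Of the 3 members tested, 3 were thus called as deposited and 2 with the floor. This list was recalled after AT2G23270 and AT4G28460 had been seen among the largest rises, so its count partly restates that choice. The share called higher over all probe sets with 1 gene was 4.32%.

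Of the remaining rises, AT1G10585, a bHLH transcription factor, had 8.68, 7.47 and 9.04 on arrays 91, 92 and 93, against 4.81, 4.13 and 6.23 on arrays 94, 95 and 96, a difference of 3.34 ± 0.46 (adjusted p = 0.00042). XTH18, a xyloglucan-modifying enzyme of the cell wall, had 5.44, 6.02 and 7.48 on arrays 91, 92 and 93, against 1.37, 2.77 and 3.78 on arrays 94, 95 and 96, a difference of 3.67 ± 0.42 (adjusted p = 9.28e-05), or 2.31 with the floor of 16. JMT, AT2G38240 and CML38, which complete the 12, are described with their groups below.

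**Figure D2:**
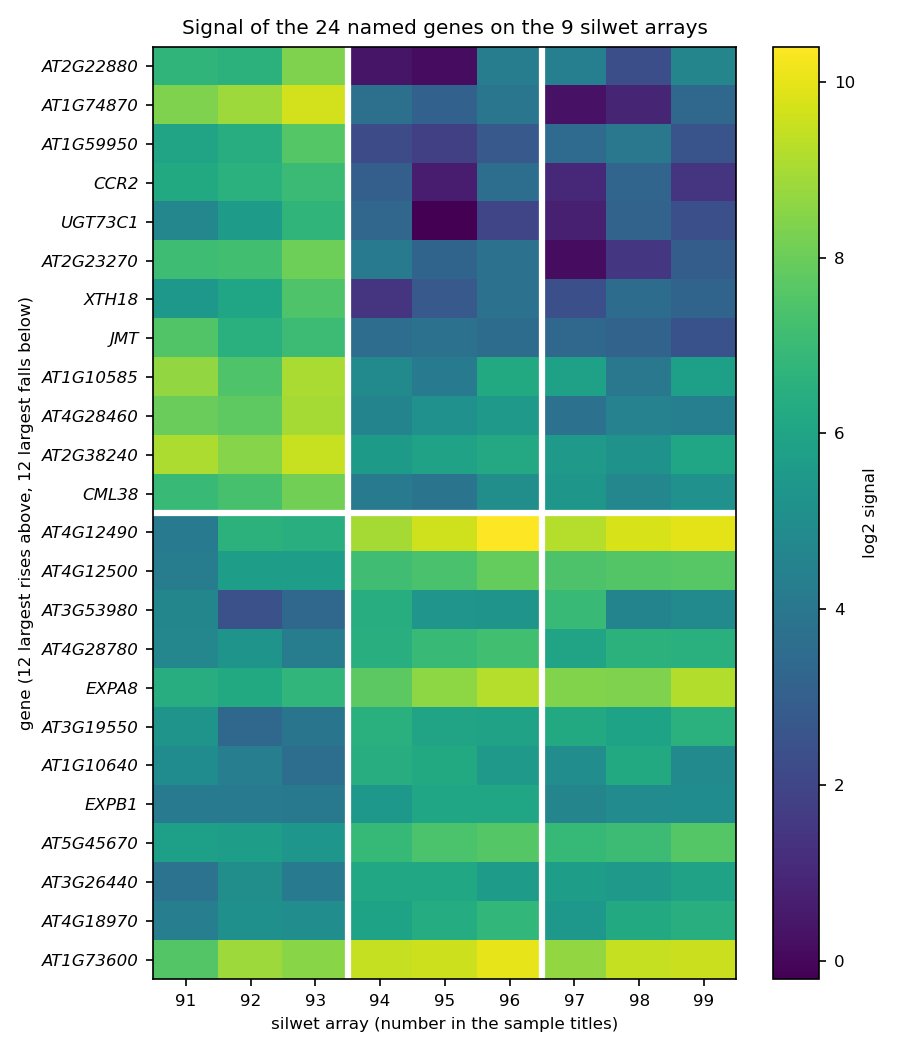
Log2 signal (colour) of the 12 largest rises (upper block) and the 12 largest falls (lower block) on the 9 silwet arrays, with white lines between the triplets 91–93, 94–96 and 97–99. The upper block is brightest on arrays 91–93, and several of its genes are near 0 on single arrays of the other triplets, such as UGT73C1 on array 95 at -0.21.

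Of the 12 largest falls, 3 were in lipid transfer proteins, 3 in GDSL lipases and 2 in expansins. This tally is over genes picked for the size of their change, with no share of each family beside it, so it is a description. AT4G12490 and AT4G12500, neighbouring genes for proline-rich lipid transfer proteins of the AZI type, which take part in priming of defence, headed the falls. AT4G12490 had 4.2, 6.6 and 6.46 on arrays 91, 92 and 93, against 8.98, 9.63 and 10.40 on arrays 94, 95 and 96, a difference of -3.91 ± 0.37 (adjusted p = 2.35e-05). AT4G12500 had 4.27, 5.68 and 5.72 on arrays 91, 92 and 93, against 7.16, 7.34 and 7.90 on arrays 94, 95 and 96, a difference of -2.24 ± 0.28 (adjusted p = 0.000199). Array 91 was the lowest for both genes, and the groups did not overlap. The 2 genes are similar in sequence, and their probe sets may share targets. On arrays 97, 98 and 99 AT4G12490 had 9.21, 9.76 and 9.97, within the range of arrays 94–96.

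AT3G53980, another lipid transfer protein, fell by 2.18 ± 0.37 (adjusted p = 0.00221), with 4.65, 2.41 and 3.36 on arrays 91, 92 and 93, against 6.39, 5.31 and 5.27 on arrays 94, 95 and 96. Its difference was -1.44 with the floor of 16. Of the GDSL lipases, a family of secreted esterases with members in cutin formation, 3 were among the 12 falls. AT4G28780 had 4.69, 5.30 and 4.30 on arrays 91, 92 and 93, against 6.47, 6.96 and 7.19 on arrays 94, 95 and 96, a difference of -2.11 ± 0.27 (adjusted p = 0.000252). AT5G45670 fell by 1.68 ± 0.31 (adjusted p = 0.00387) and AT4G18970 by 1.55 ± 0.22 (adjusted p = 0.000484). AT4G13840, or CER26, which takes part in the elongation of wax precursors, fell by 1.17 ± 0.24 (adjusted p = 0.0069). It was the 1 gene called among the 4 tested of the cuticle list, whose median difference was -1.0. The share called lower over all probe sets with 1 gene was 2.49%, and 1 call is no result about the list. Without array 93, without replicate 2 and without replicate 3 limma called none of the 4, with 2 at an unadjusted p below 0.05 each time. SHN3, a regulator of wax and cutin genes, and FDH, a condensing enzyme of the epidermis, had differences of -1.12 ± 0.40 and -0.89 ± 0.42 and did not pass (adjusted p = 0.113 and 0.243).

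Among expansins, which loosen walls so that cells can grow, 3 fell. EXPA8 had 6.42, 6.24 and 6.78 on arrays 91, 92 and 93, against 7.73, 8.59 and 9.20 on arrays 94, 95 and 96, a difference of -2.03 ± 0.28 (adjusted p = 0.000363). EXPB1 had 4.22, 4.13 and 4.09 on arrays 91, 92 and 93, against 5.46, 6.03 and 6.01 on arrays 94, 95 and 96, a difference of -1.69 ± 0.25 (adjusted p = 0.00064). The groups of both genes lay well apart. EXPA15 fell by 0.98 ± 0.26 (adjusted p = 0.0297). AT1G10640, a pectin-degrading polygalacturonase by its annotation, fell by 1.75 ± 0.31 (adjusted p = 0.00273). Of the 27 members tested on the cell wall list, 3 fell (11.1%), namely these expansins, and 2 rose (7.41%), namely XTH18 and XTH29, with a median of -0.22. Shares over all probe sets with 1 gene were 2.49% lower and 4.32% higher. Leaving out any 1 of arrays 91 to 95 left 1 rise and 2 falls, and leaving out replicate 3 left 1 of each. The xyloglucan enzyme XTH29 rose by 1.07 ± 0.30 (adjusted p = 0.0388).

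AT1G73600, a methyltransferase of phosphocholine synthesis, fell by 1.40 ± 0.24 (adjusted p = 0.00229), with 7.55, 8.84 and 8.50 on arrays 91, 92 and 93, against 9.45, 9.60 and 10.02 on arrays 94, 95 and 96. The remaining falls of the 12 were AT3G19550 at -1.97 ± 0.28 (adjusted p = 0.000556) and AT3G26440 at -1.63 ± 0.32 (adjusted p = 0.00586).

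Most regulators known from touch, wounding and other rapid stress that could be tested were higher on arrays 91–93. The list was chosen with earlier results of these data known, so its share is a description and not an independent test. Of the 11 list members tested, 9 rose and none fell, with a median difference of 1.53, against 4.32% of all probe sets with 1 gene called higher. By role these were 3 calmodulin-like calcium sensors, 3 WRKY factors, the zinc finger repressor STZ and 2 ubiquitin ligases.

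The calcium sensor CML38 had 6.98, 7.31 and 8.12 on arrays 91, 92 and 93, against 4.12, 3.88 and 5.05 on arrays 94, 95 and 96, a difference of 3.12 ± 0.25 (adjusted p = 8.27e-06). CML37, its close relative, rose by 1.53 ± 0.25 (adjusted p = 0.00163) and CML42, known from trichome branching and herbivory, by 1.38 ± 0.19 (adjusted p = 0.000353). The groups did not overlap in any of the 3, which is likely for genes picked as called. CML30 rose by 1.14 (adjusted p = 0.0316), so that 4 of 6 calmodulin-like genes tested rose, or 2 of 6 with no replicate block and without replicate 2. The share called higher over all probe sets with 1 gene was 4.32%. This list shares called members with the regulator list above, so the counts are not separate. CML41, a plasmodesmal member of the family, had 6.69, 5.66 and 6.59 on arrays 91, 92 and 93, against 5.37, 5.48 and 6.07 on arrays 94, 95 and 96. Its groups overlapped and it did not pass (adjusted p = 0.108), nor did CML43 with a difference of 0.32 ± 0.29 (adjusted p = 0.588).

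Among transcription factors, STZ, a zinc finger repressor also named ZAT10, had 8.39, 9.15 and 9.59 on arrays 91, 92 and 93, against 6.90, 6.57 and 6.66 on arrays 94, 95 and 96, a difference of 2.33 ± 0.35 (adjusted p = 0.000815). The senescence and defence regulators WRKY53 and WRKY6 rose by 1.61 ± 0.25 (adjusted p = 0.000971) and 1.77 ± 0.30 (adjusted p = 0.00221). WRKY22, which acts downstream of immune MAP kinases, rose by 1.27 ± 0.30 (adjusted p = 0.0175). On the WRKY, ERF and ZAT list these 4 of 8 members rose and none fell, beside 4.32% of all probe sets with 1 gene called higher. This list too shares called members with the regulator list. Limma called none of the 8 without replicate 2 or without replicate 3, although 4 had an unadjusted p below 0.05 in both settings.

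The U-box ubiquitin ligases PUB22, PUB23 and PUB24 restrain immune signalling. PUB23 had 7.12, 7.49 and 8.12 on arrays 91, 92 and 93, against 5.53, 5.24 and 5.76 on arrays 94, 95 and 96, a difference of 2.07 ± 0.33 (adjusted p = 0.00124). PUB24 rose by 1.06 ± 0.18 (adjusted p = 0.0023) and AT5G37490, or PUB21, by 2.49 ± 0.26 (adjusted p = 4.93e-05). Without replicate 3, 1 of these 3 was called. Their levels parted on the third triplet. PUB23 had 4.18, 5.37 and 4.59 on arrays 97, 98 and 99, while PUB24 had 6.94, 7.11 and 6.88, between its levels on the earlier triplets.

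The count of called regulators depended on which replicate was left out. It was 9 of 11 without replicate 1, 4 without replicate 2 and 3 without replicate 3; in the last 2 settings 10 and 9 of them still had an unadjusted p below 0.05. With arrays 97 and 100 left out it was 10 of 11.

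**Figure D3:**
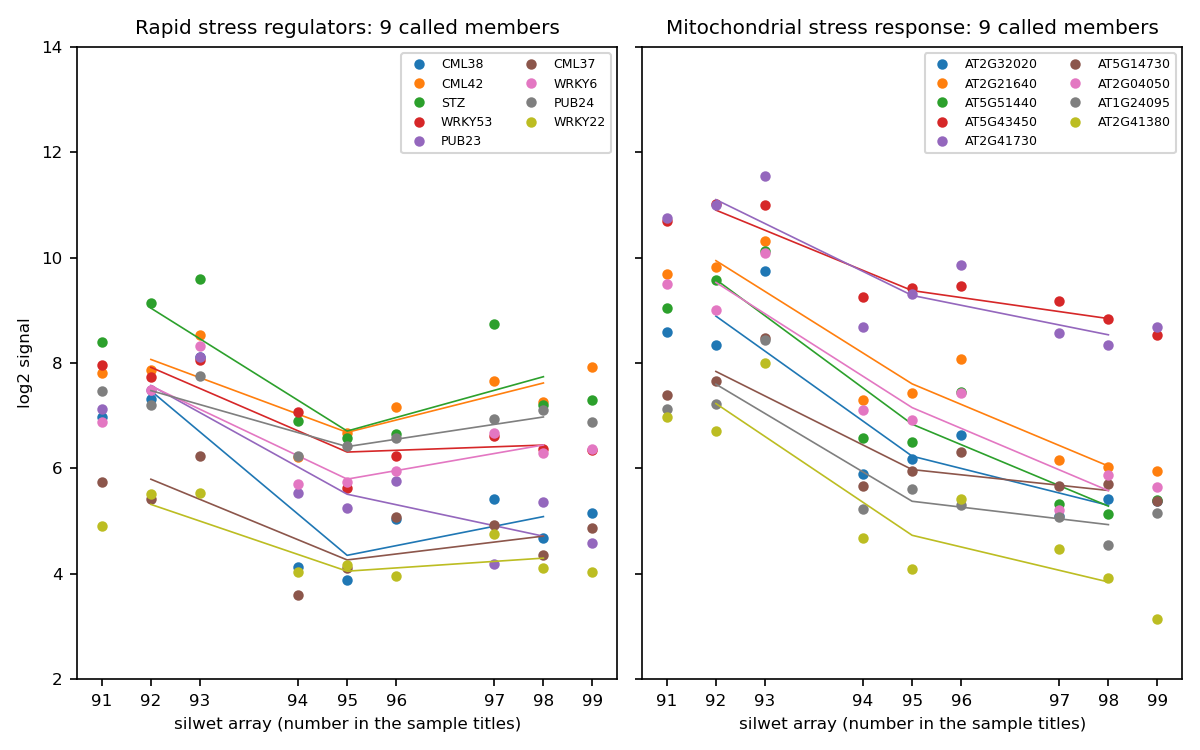
Log2 signal on each of the 9 silwet arrays for the 9 called members of the rapid stress regulator list (left) and of the mitochondrial stress list (right). Points are arrays and lines join the means of the triplets 91–93, 94–96 and 97–99; all members are higher on arrays 91–93 than on arrays 94–96, for example AT2G21640 with 9.70 to 10.31 against 7.30 to 8.08.

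A mitochondrial stress list, recalled after several of its members had appeared among the larger rises, gave 9 higher and none lower of 13 tested, with a median of 1.86. Over all probe sets with 1 gene, 4.32% were called higher and 2.49% lower. The list's count partly restates how it was chosen. AT2G21640, or UPOX, a marker of mitochondrial oxidative stress, had 9.70, 9.82 and 10.31 on arrays 91, 92 and 93, against 7.30, 7.43 and 8.08 on arrays 94, 95 and 96, a difference of 2.34 ± 0.23 (adjusted p = 2.76e-05). AT5G51440, a small heat shock protein of mitochondria, had 9.04, 9.58 and 10.13 on arrays 91, 92 and 93, against 6.57, 6.50 and 7.45 on arrays 94, 95 and 96, a difference of 2.75 ± 0.31 (adjusted p = 9.38e-05). AT2G32020, a GNAT-type acetyltransferase, rose by 2.66 ± 0.22 (adjusted p = 9.58e-06). These genes were well above background in both triplets and the groups lay more than 1 apart.

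AT2G04050, a MATE-type efflux carrier, had 9.49, 9.01 and 10.09 on arrays 91, 92 and 93, against 7.11, 6.91 and 7.44 on arrays 94, 95 and 96, a rise of 2.38 ± 0.35 (adjusted p = 0.000797). AT2G41380, a methyltransferase, rose by 2.5 ± 0.44 (adjusted p = 0.00276) and AT5G43450, an oxygenase related to ACC oxidase, by 1.53 ± 0.18 (adjusted p = 0.000122). AT2G41730, AT5G14730 and AT1G24095 rose by 1.82 ± 0.21, 1.86 ± 0.24 and 2.22 ± 0.34 (adjusted p = 0.000122, 0.000271 and 0.000918). Among those that did not pass were NDB4, an alternative NADH dehydrogenase, at 1.34 ± 0.48 (adjusted p = 0.117), and AT5G39520 at -2.0 ± 0.64 (adjusted p = 0.0757).

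Over the alternatives run, 8 to 10 of the 13 were called higher and 0 to 1 called lower. Settings with 1 called lower included the 6 arrays alone, array weights, and the fits without replicate 1 or without arrays 97 and 100. Both without replicate 2 and without replicate 3, 8 were called higher and 0 lower. All these fits used arrays on which the members had been seen before the list was recalled. Several continued downward in level. AT5G51440 had 5.32, 5.13 and 5.40 on arrays 97, 98 and 99, and AT2G21640 had 6.16, 6.02 and 5.96, below every array of the earlier triplets in both cases. The list's median level was 8.78 on arrays 91–93, 6.23 on arrays 94–96 and 5.58 on arrays 97–99.

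Genes of enzymes that modify jasmonate rose, while the defensins known as its targets did not pass. JMT, which methylates jasmonic acid, had 7.51, 6.53 and 7.08 on arrays 91, 92 and 93, against 3.58, 3.74 and 3.56 on arrays 94, 95 and 96, a difference of 3.41 ± 0.43 (adjusted p = 0.000211). AT2G38240, a jasmonate-induced oxygenase (JOX4) that hydroxylates and so inactivates jasmonic acid, had 9.09, 8.48 and 9.52 on arrays 91, 92 and 93, against 5.55, 5.91 and 6.20 on arrays 94, 95 and 96, a difference of 3.14 ± 0.34 (adjusted p = 7e-05). Both genes showed a wide gap between the groups. AT5G05600 (JOX2) rose by 1.67 ± 0.24 (adjusted p = 0.000579) and JRG21 (JOX3) by 1.94 ± 0.41 (adjusted p = 0.00933), so that all 3 JOX genes tested rose. The JOX genes too were recalled as a list after AT2G38240 had been seen, so their count partly restates how they were chosen. The share called higher over all probe sets with 1 gene was 4.32%.

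Of the 9 members tested on the wider jasmonate list, 3 rose and none fell, with a median of 0.39. Shares over all probe sets with 1 gene were 4.32% higher and 2.49% lower. Without replicate 1, 3 rises and 1 fall were called on this list. Only 1 rise was called without replicate 3 or without array 91, 92 or 94 alone. Besides JMT these were BSMT1, which methylates salicylate and benzoate, at 2.34 ± 0.55 (adjusted p = 0.0172), and the thionin THI2.2 at 1.64 ± 0.43 (adjusted p = 0.0302). The antifungal defensins PDF1.2 and PDF1.2b, known late targets of jasmonate with ethylene, had differences of -0.33 ± 0.51 and -0.61 ± 0.54 (adjusted p = 0.783 and 0.585). PDF1.2 had 8.91, 7.70 and 7.57 on arrays 91, 92 and 93, against 9.92, 7.23 and 8.01 on arrays 94, 95 and 96, so that its groups overlapped. The synthesis gene OPCL1 and the regulator ORA47 did not pass either (adjusted p = 0.588 for both).

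On the salicylic acid list, 3 of 5 members rose: WRKY53, BSMT1 and the glutaredoxin GRX480, a partner of TGA factors, at 1.09 ± 0.27 (adjusted p = 0.022). The share called higher over all probe sets with 1 gene was 4.32%. No SA had been given on either side of this comparison. GRX480 had 8.43, 7.89 and 7.83 on arrays 91, 92 and 93, against 6.97, 6.79 and 7.11 on arrays 94, 95 and 96. UGT76B1, which glucosylates the immune regulators isoleucic acid and N-hydroxypipecolic acid, had a difference of 1.87 ± 0.55 and did not pass (adjusted p = 0.0546). Without replicate 2 and without replicate 3 none of the 5 passed limma's test, although 3 and 4 of them had an unadjusted p below 0.05, and 1 passed without array 91 or array 92 alone. Of the 5, 4 rose with the floor, quantile normalization or array weights, on the 6 arrays alone, and without arrays 97 and 100.

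Detoxification lists differed in how many of their members had a difference above 0. The difference was above 0 for 22 of 33 UDP-glycosyltransferases, 6 of 12 glutathione transferases, 4 of 14 cytochromes P450 and 6 of 7 xenobiotic list members tested. These signs include members that did not pass, and no share of signs over all probe sets stands beside them. They are a description and no result about the lists. Over all probe sets with 1 gene, 4.32% were called higher and 2.49% lower. Of the 33 UDP-glycosyltransferases, 4 rose (12.1%) and 2 fell (6.06%), with a median of 0.26, beside -0.10 over all probe sets tested. These counts were unstable: limma called none without replicate 2 or without replicate 3, with 10 and 11 at an unadjusted p below 0.05, while 1 rise remained without array 93, 2 without array 92 or array 95, and 10 were called on the 6 arrays alone. UGT76E12 had 5.42, 5.53 and 6.44 on arrays 91, 92 and 93, against 3.03, 3.23 and 4.11 on arrays 94, 95 and 96, a rise of 2.34 ± 0.46 (adjusted p = 0.00575). UGT72E1, which glucosylates monolignol aldehydes, fell by 0.82 ± 0.17 (adjusted p = 0.0091). UGT76C2, an enzyme of cytokinin conjugation, rose by 1.13 (adjusted p = 0.0191), as did UGT87A2 by 1.20 (adjusted p = 0.0444), and UGT85A4 fell by 1.27 (adjusted p = 0.0231). Of 12 glutathione transferases tested, 1 was called. GSTU15 fell by 1.24 ± 0.31 (adjusted p = 0.0234), but all its values lay below 4, and with the floor of 16 it had no difference.

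Of 14 cytochromes P450, CYP84A4 rose and CYP71B36 fell by 1.98 ± 0.51 (adjusted p = 0.0284), a dim gene whose difference was -0.57 with the floor of 16 and then did not pass (adjusted p = 0.279). AT5G52050, a MATE carrier that exports abscisic acid, rose by 2.61 ± 0.48 (adjusted p = 0.00333), or 1.06 with the floor of 16. ALDH7B4, a stress-induced aldehyde dehydrogenase, rose by 0.82 ± 0.17 (adjusted p = 0.00845), and with UGT73C1 it made up the 2 of 7 xenobiotic list members that rose. On that list 1 rise was called without array 93, and limma called none without replicate 2 or replicate 3, with 4 and 3 at an unadjusted p below 0.05. It had 4 rises on the 6 arrays alone and without arrays 97 and 100.

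**Figure D4:**
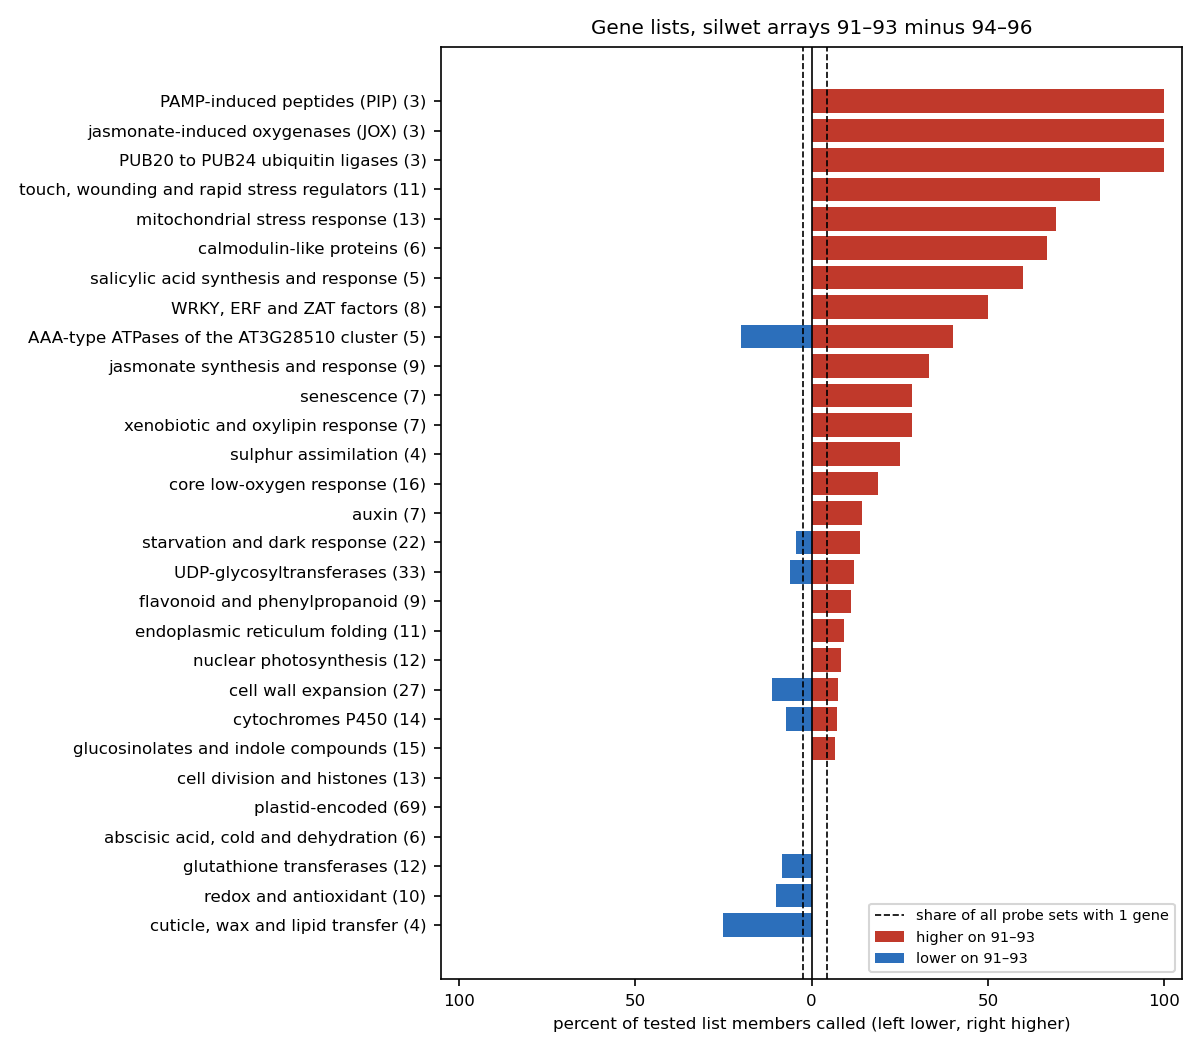
Percent of tested members called higher (red, to the right) and lower (blue, to the left) on silwet arrays 91–93 relative to arrays 94–96 for each list with at least 3 tested members, whose number stands in parentheses. Dashed lines mark the shares over all probe sets with 1 gene, 4.32% higher and 2.49% lower; the rapid stress regulators reach 9 of 11 and the 69 plastid-encoded genes lie at 0. The PIP, JOX, PUB, mitochondrial, low-oxygen and AAA-type lists were recalled after the largest differences had been seen. The other lists were also chosen with earlier results of these data known.

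In the endoplasmic reticulum list, BZIP60 alone of 11 members was called. This transcription factor of the unfolded protein response had 10.22, 9.69 and 10.66 on arrays 91, 92 and 93, against 8.18, 8.27 and 8.86 on arrays 94, 95 and 96, a rise of 1.75 ± 0.18 (adjusted p = 4.64e-05). The list's median was -0.01, and the folding factor gene DER1 had a difference of 0.18 ± 0.17 (adjusted p = 0.612). Of the photosynthesis genes in the nucleus, LHCB4.3, a minor antenna isoform known from strong light, rose by 1.22 ± 0.16 (adjusted p = 0.000353), 1 of 12 tested. The isoforms LHCB4.1 and LHCB4.2 differed by -0.01 and 0.26. Neither single call is a result about its list, beside 4.32% of all probe sets with 1 gene called higher.

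Of the 22 members tested on the starvation list, 3 rose (13.6%), 1 fell (4.55%) and 18 did not pass. Shares over all probe sets with 1 gene were 4.32% higher and 2.49% lower. The rises were all in ATG8 genes, whose products coat autophagosomes. ATG8E had 8.23, 7.79 and 8.52 on arrays 91, 92 and 93, against 6.34, 6.55 and 7.45 on arrays 94, 95 and 96, a rise of 1.40 ± 0.27 (adjusted p = 0.00535). ATG8H rose by 1.27 ± 0.31 (adjusted p = 0.0203) and ATG8B by 0.96 (adjusted p = 0.0268). On arrays 97, 98 and 99 ATG8E had 8.30, 7.03 and 7.98. Without replicate 2 and without replicate 3 limma called no rise on this list, with 7 and 6 members at an unadjusted p below 0.05, and leaving out array 92, 93, 94 or 96 alone left 1 rise. DPE1, a plastid enzyme of starch breakdown at night, fell by 1.15 ± 0.17 (adjusted p = 0.000797), with 7.12, 7.4 and 6.58 on arrays 91, 92 and 93, against 8.41, 8.24 and 7.90 on arrays 94, 95 and 96.

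Single members of other lists passed, and 1 call in a list is no result about that list. Over all probe sets with 1 gene, 4.32% were called higher and 2.49% lower. APK1A, an adenosine phosphosulfate kinase, rose by 1.18 ± 0.18 (adjusted p = 0.00115), 1 of 4 genes of sulphur assimilation. HYH, a bZIP factor of light signalling, rose by 0.98 ± 0.18 (adjusted p = 0.00414), 1 of 2 genes tested on the clock list. The flavonoid list had 4CL8, a CoA ligase, at 1.61 ± 0.32 (adjusted p = 0.00642), 1 of 9 tested. The glucosinolate list had BGLU40, a beta-glucosidase, at 1.13 ± 0.23 (adjusted p = 0.00669), 1 of 15. The auxin list had the repressor IAA18 at 0.68 ± 0.20 (adjusted p = 0.0467), 1 of 7. PRXIIF, a mitochondrial peroxiredoxin, fell by 0.50 ± 0.13 (adjusted p = 0.03), 1 of 10 redox genes.

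No member of the plastid-encoded list of 69 was called by limma, with 1 at an unadjusted p below 0.05, and its median changed sign between pairs, with -1.03, 0.44 and 0.07 in pairs 1, 2 and 3. Of the 13 genes of cell division and histones, none passed limma's test and 3 had an unadjusted p below 0.05, with a median of -0.29. HTB1, a histone H2B, had a difference of -0.51 ± 0.16 (adjusted p = 0.0723). Of the 6 cold and dehydration genes none passed either, with 1 at an unadjusted p below 0.05. LTI30, a dehydrin, had a difference of 0.82 ± 0.25 (adjusted p = 0.0587), and COR15A had 11.44, 11.47 and 11.44 on arrays 91, 92 and 93, against 11.25, 11.02 and 10.28 on arrays 94, 95 and 96.

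The same pair of triplets exists among the SA arrays, which share no array with the silwet comparison. On arrays 100–102 minus 103–105, 1788 probe sets (11.2%) were called higher and 2592 (16.3%) lower. Of the 753 probe sets called higher on silwet arrays 91–93, 535 (71%) were also called higher on SA arrays 100–102, which is 29.9% of the SA calls. Of the 438 called lower, 70.1% were also called lower there, or 11.8% of the SA calls. Opposite calls were found for 6 of the 753 and for 4 of the 438. The SA difference was above 0 for 91.6% of those called higher, beside 37.8% of all probe sets, and below 0 for 94.1% of those called lower, beside 62.2% of all.

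The medians of the sizes lay close together. The median SA difference was 1.37 for the probe sets called higher on the silwet arrays, whose silwet median was 1.34, and -0.87 for those called lower, whose silwet median was -0.84. Over all 15922 probe sets the correlation between the differences was 0.626, a description across probe sets that share depth and array design. Both contrasts come from 1 fit with a shared spread. Fitted apart on 9 arrays each, the silwet arrays gave 618 higher and 185 lower, of which 64.7% and 70.3% were also called on the SA arrays, beside backgrounds of 8.96% and 10.7%.

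Single genes show the likeness. CML38 rose by 2.45 on the SA arrays (adjusted p = 9.1e-06), AT1G74870 by 7.08 (adjusted p = 5.4e-06) and AT5G51440 by 4.13 (adjusted p = 1.2e-06), while EXPA8 fell by 2.48 (adjusted p = 1.8e-05). EXPA8 had 6.70, 6.14 and 6.42 on SA arrays 100, 101 and 102, against 8.85, 9.12 and 8.73 on SA arrays 103, 104 and 105. AT3G26440, among the 12 falls on the silwet arrays, had a difference of 0.02 on the SA arrays (adjusted p = 0.97), and UGT76E12 one of -0.06 (adjusted p = 0.94). For neither of them did the test of the difference between the contrasts pass (adjusted p = 0.0788 and 0.076).

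**Figure D5:**
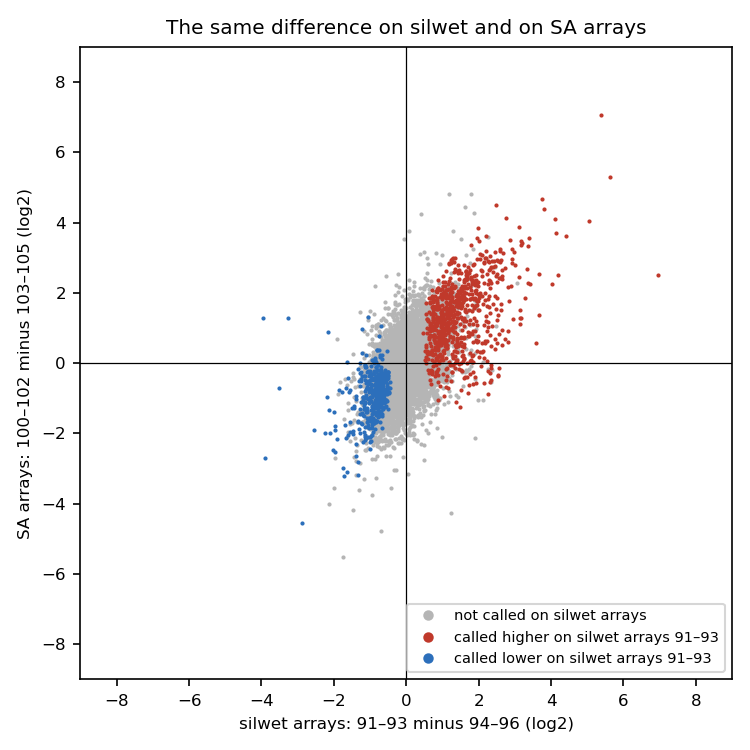
Difference on silwet arrays (91–93 minus 94–96, horizontal axis, log2) against the difference on SA arrays (100–102 minus 103–105, vertical axis, log2) for the 15922 probe sets tested. Red points were called higher and blue points lower on the silwet arrays; 690 of the 753 red points lie above 0 and 412 of the 438 blue points below 0 on the vertical axis.

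The difference itself, silwet contrast minus SA contrast, was called for 325 probe sets (2.04%), with the silwet contrast above the SA contrast in 130 and below it in 195. Of these, 54 were among the 753 called higher on the silwet arrays and 19 among the 438 called lower. Among the genes described, jasmonate oxygenases stood in this group. AT5G05600 had 8.87, 8.50 and 9.0 on silwet arrays 91, 92 and 93, against 7.13, 6.77 and 7.45 on silwet arrays 94, 95 and 96. On the SA arrays it had 7.94, 7.02 and 8.55 on arrays 100, 101 and 102, against 7.67, 7.37 and 8.47 on arrays 103, 104 and 105, where the groups overlapped. Its contrasts differed by 1.68 ± 0.34 (adjusted p = 0.0251) and those of JRG21 by 2.49 ± 0.58 (adjusted p = 0.042). For AT2G38240 the contrasts differed by 1.63 ± 0.48 and the test did not pass (adjusted p = 0.0997). BSMT1 had a difference of 2.34 on the silwet arrays and -0.48 on the SA arrays, and that gap did not pass either (adjusted p = 0.0773). These calls were sensitive to the arrays: without replicate 2 or without replicate 3 limma called 0 probe sets, with 1043 and 1513 at an unadjusted p below 0.05.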

How the data were processed

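Total RNA of 18 Tsu-1 samples had been hybridised to ATH1 arrays. The authors deposited linear intensity values, 1 per probe set and array. MAS5, of a version not given in the sources used here, is named in the submitters' processing notes. Every array had a trimmed mean of 100.01 (2% off each end), so values were used as deposited and taken as log2. Of 22810 probe sets, 64 controls and the lowest 30% by mean log2 (6824) were left out. Names came from the platform annotation, updated through RefSeq, for 13513 probe sets with 1 gene; 503 with several genes and 8730 others were not named. limma 3.58.1 in R 4.3.3 was fitted to all 18 arrays in 6 sets with replicate number as a block and a mean-variance trend (10 residual degrees of freedom), with Benjamini-Hochberg adjustment. It was tested on simulated data.

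The block follows the replicate numbers in the titles. Between arrays 91–93 and 94–96, deviations from group means correlated at 0.166 to 0.441 for the same number and at -0.311 to 0.134 for others, so the numbers were taken to pair these arrays. Elsewhere the pairing was less clear: arrays 94 and 97 gave -0.051, arrays 95 and 98 gave 0.051, and arrays 94 and 98, of different number, 0.277. Counts with no block stand in the report. The text names the 12 largest called rises and falls as defined in the report, and up to 3 members with the smallest p of each list. Other members named were chosen after their values were seen. A gene with several probe sets was represented by the brightest. Members and lists were chosen with earlier results of these data known. Alternatives covered the block, the arrays fitted, the filter, a signal floor, quantile normalization, array weights, moderation, and arrays left out.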

Additional observations from a re-analysis of the deposited data

Results flagged for a closer look

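The change between triplets differed between silwet and SA arrays, by the interaction term of the limma fit, for 325 probe sets. Among the genes described, 8 passed that test, each given as the silwet difference minus the SA difference on the log2 scale with its adjusted p. The silwet difference was the higher one for JRG21 by 2.49 (adjusted p = 0.042), for 4CL8 by 2.03 (adjusted p = 0.0369), for AT5G05600 by 1.68 (adjusted p = 0.0251) and for BGLU40 by 1.51 (adjusted p = 0.0321). It was the lower one for the ubiquitin ligase PUB24, at -1.12 (adjusted p = 0.0408), for the light-signalling factor HYH, at -1.12 (adjusted p = 0.0408), and for the glutathione transferase GSTU27, at -1.03 (adjusted p = 0.0477). PUB24 and HYH rose on both kinds of array, by 1.06 and 0.98 on the silwet arrays and by 2.18 and 2.1 on the SA arrays. GSTU27 was not called in either contrast alone, with differences of -0.56 on the silwet arrays and 0.47 on the SA arrays.

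AT3G28510, an AAA-type ATPase gene, had -5.25 (adjusted p = 0.0318), a size that rests on very low values. It had -2.02, 1.93 and 1.67 on silwet arrays 91, 92 and 93, against 4.11, 4.81 and 4.54 on silwet arrays 94, 95 and 96. On SA arrays it had 6.37, 6.96 and 6.38 on arrays 100, 101 and 102, against 5.41, 4.77 and 5.65 on arrays 103, 104 and 105. With the signal floor of 16 its silwet difference was -0.49 in place of -3.96 and did not pass (adjusted p = 0.343).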

How the results depend on the processing

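The main counts were 753 higher and 438 lower. All alternatives kept the direction of the 24 genes with the largest changes, which is no independent check. These genes had been picked as called and with 1 sign in all 3 pairs of the same arrays, so a reversal was unlikely from the start. Of these 24, 23 stayed called with no replicate block and without replicate 1, 20 without replicate 2, 16 without replicate 3, and 23 without array 93; with the lowest 50% of probe sets left out, 14 of them were tested and all 14 were called. The floor of 16 moved 6 of the 24 by over 1.5 times. With no replicate block, 443 were higher and 129 lower, 1690 were lower on SA arrays and 47 differed between the contrasts. The 6 arrays compared alone gave 1155 and 942, and the 9 silwet arrays 185 lower. Array weights gave 1378 and 1593, with 2872 and 4573 on SA arrays and 2421 between contrasts. Leaving out arrays 97 and 100 gave 1192 and 1330, and 1514 between contrasts. Leaving out a replicate or 1 array gave 160 to 932 higher, 19 to 710 lower, 816 to 2255 higher and 768 to 3295 lower on SA arrays, and 0 to 560 between contrasts, where 2397 passed unadjusted in the main limma fit and 1043 and 1513 without replicates 2 and 3. Single arrays that moved the counts by over 1.5 times were 93 (432 and 124) and 96 (460 and 139); leaving out array 91, 92, 94 or 95 also cut the lower calls by over 1.5 times, to 223 for array 94. The share of calls that were higher was 63.2% in the main fit, 77.4% with no replicate block, 77% with the 9 silwet arrays, 46.4% with array weights, 47.3% without arrays 97 and 100, 83.5% without replicate 2 and 89.4% without replicate 3. The cause of these shifts was not tested. Dim probe sets are the least precise, and 27.5% of those called higher had a mean under 5 on arrays 94–96, beside 26.8% of all.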

Other observations

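Low-oxygen genes, a list recalled after the largest differences had been seen, had a median difference of 0.07 between silwet arrays 91–93 and 94–96. Of 16 members tested, 3 rose (18.8%) and none fell, beside 4.32% of all probe sets with 1 gene called higher. Besides CML38, which is also a low-oxygen gene, these were AT4G17260 and AT3G23170. AT4G17260, the lactate dehydrogenase that ferments pyruvate, had 9.93, 9.93 and 10.46 on arrays 91, 92 and 93, against 7.66, 7.84 and 7.92 on arrays 94, 95 and 96, a rise of 2.30 ± 0.25 (adjusted p = 7.16e-05). On arrays 97, 98 and 99 it had 7.07, 6.98 and 6.55. AT3G23170 rose by 1.05 ± 0.27 (adjusted p = 0.0292). AT4G10270, a wound-responsive protein induced by hypoxia, had a difference of -0.12 ± 0.27 (adjusted p = 0.861).

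Of 5 AAA-type ATPase genes tested, namely AT3G28510 and its relatives, 2 rose and 1 fell as deposited. Shares over all probe sets with 1 gene were 4.32% higher and 2.49% lower. The list was recalled after the largest differences had been seen, so its count is a description. AT1G43910 rose by 1.94 ± 0.20 (adjusted p = 4.64e-05), with 8.80, 8.64 and 9.76 on arrays 91, 92 and 93, against 6.77, 7.37 and 7.25 on arrays 94, 95 and 96. AT2G18190 rose by 1.12 ± 0.29 (adjusted p = 0.0306), but its difference was 0.02 with the floor of 16 and did not pass (adjusted p = 0.905). The fall of AT3G28510, by 3.96, did not pass with the floor either (adjusted p = 0.343). AT3G28580 and AT3G28540 had differences of 0.92 ± 0.27 and -0.93 ± 0.36 and did not pass (adjusted p = 0.0546 and 0.141).

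Among probe sets with 1 gene, HOS3-1 and AT3G51330 shared the smallest adjusted p for the difference between contrasts; they were named after their values were seen. HOS3-1 had a mean of 6.20 on silwet arrays 91–93 against 4.71 on silwet arrays 94–96, and of 4.23 on SA arrays 100–102 against 5.47 on SA arrays 103–105. Its contrasts differed by 2.73 ± 0.28 (adjusted p = 0.00118). AT3G51330 went the other way, with a silwet difference of -1.07 and an SA difference of 1.32 (adjusted p = 0.00118 for the gap).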
